A study of Mus musculus with 127 samples.

Results

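The 78 mouse genes whose symbols begin with Mrpl or Mrps followed by a number, which encode proteins of the mitochondrial ribosome, were taken by symbol from the 54838 gene rows shared by the 5 deposited count tables. Of these, 49 carry Mrpl symbols (large subunit) and 29 carry Mrps symbols (small subunit), and 5 rows named as pseudogenes were left out. The rule uses the symbol alone, though the set was chosen with earlier results of these data known. The libraries are bulk poly(A)-enriched RNA-seq of mouse cortex collected on or around postnatal day 60, in mice with less functional Chd8, the gene of a chromatin remodeller. In the germline line, HET mice were Chd8+/5bpdel, written Chd8+/– in the titles, and WT mice were their wild-type littermates. Whole cortex of this line was measured in 16 HET and 15 WT libraries, the nuclear fraction in 9 HET and 12 WT, the synaptic fraction in 7 HET and 11 WT, and the cytosolic fraction in 7 HET and 5 WT, with 4 further cytosolic libraries not analysed here. In the conditional line, whole cortex was compared between 6 Camk2a-CRE Chd8+/flox mice and 8 Chd8+/flox mice without Cre, so Cre and the deletion cannot be told apart there. The conditional fractions all carried Camk2a-CRE, controls included. They comprised 6 HET (Chd8+/flox), 3 HOM (Chd8flox/flox) and 4 WT (Chd8+/+) nuclear libraries, and 5 HET, 5 HOM and 4 WT synaptic libraries. Camk2a drives Cre mainly in excitatory neurons of the forebrain, so the flox alleles stay intact in most other cells of the tissue.

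Mitochondria translate the few proteins encoded by their own genome, all of them parts of the oxidative phosphorylation complexes or of ATP synthase, on a ribosome whose RNAs are mitochondrial and whose proteins are all imported. The genes measured here are therefore nuclear genes, read by the nuclear polymerase and translated in the cytosol before import. Many bacterial ribosomal proteins have a counterpart in this set, and others are found only in mitochondria. In neurons, mitochondria are carried into axons and dendrites, and RNAs of nuclear-encoded mitochondrial proteins are among those found there. Mrps30 and Mrps18a are named for the small subunit although their products sit in the large one, Mrpl58 is a peptidyl-tRNA hydrolase built into the large subunit, and Mrps36 has been assigned to the alpha-ketoglutarate dehydrogenase complex.

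Promoters of nuclear genes for mitochondrial proteins are known to hold sites of NRF1, ETS factors (NRF2/GABP) and YY1, and the windows of these genes are shown for that reason. RefSeq windows of 300 bases on GRCm38.p6, 250 before and 50 after a start, were found for 69 of the 78 genes, 75 windows in all. The ETS core CCGGAAG, on either strand (CTTCCGG), occurred in 34.7% of these windows and in 8.86% of all 32851 windows. The NRF1 motif GCGCATGCG (CGCATGCGC on the other strand) occurred in 9.33% against 1.75%, and the YY1 motif AAGATGGCG (CGCCATCTT) in 10.7% against 1.4%. The GC-rich SP1/KLF motif GGGGCGGGG (CCCCGCCCC) occurred in 20% against 11.4%, and the cyclic AMP response element TGACGTCA, the same on both strands, in 2.67% against 1.79%. At least 1 of NRF1, ETS and YY1 was in 36 of the 75 windows (48.0%), against 11.4% of all windows. The median GC content was 58.7% in the windows of these genes and 52.7% in all windows, and the motifs were counted apart, whether or not they overlapped. A match describes the letters and is not evidence of a bound site. The following 5 stretches of 100 bases, all upstream of the start, carry such matches, given in capitals: ETS and NRF1 in Mrpl22, ETS in Mrpl34, Mrpl43 and Mrps22, and NRF1 on both strands in Mrpl9. Their positions are chr11:58171561-58171660 (plus strand) for Mrpl22, chr8:71464826-71464925 (plus) for Mrpl34, chr19:45006443-45006542 (minus) for Mrpl43, chr9:98601680-98601779 (minus) for Mrps22 and chr3:94443218-94443317 (plus) for Mrpl9.
Mrpl22: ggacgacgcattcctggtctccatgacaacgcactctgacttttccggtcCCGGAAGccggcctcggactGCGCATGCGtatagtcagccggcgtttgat
Mrpl34: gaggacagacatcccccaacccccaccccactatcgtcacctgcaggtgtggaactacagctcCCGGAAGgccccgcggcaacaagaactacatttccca
Mrpl43: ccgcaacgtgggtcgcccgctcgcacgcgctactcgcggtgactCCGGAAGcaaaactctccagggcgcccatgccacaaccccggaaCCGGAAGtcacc
Mrps22: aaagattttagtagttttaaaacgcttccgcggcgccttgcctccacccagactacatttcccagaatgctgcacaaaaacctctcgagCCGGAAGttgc
Mrpl9: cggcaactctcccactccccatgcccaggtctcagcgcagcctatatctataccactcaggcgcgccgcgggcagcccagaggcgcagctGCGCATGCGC

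Library totals, in M (mega) counts, were 19 to 30.5 in germline cortex, 23.2 to 56.6 in the germline and conditional fractions, and 98.1 to 134.6 in conditional cortex. Chd8 averaged 62 ± 11.9 CPM (counts per mega count of the library) in germline HET cortex (SD, n = 16) and 93.2 ± 13.8 CPM in WT cortex (SD, n = 15), but 117 CPM in both the HET and the WT nuclear fraction. It averaged 51.7 ± 11.3 CPM in conditional cortex with Cre (SD, n = 6) and 73.4 ± 18.9 CPM without (SD, n = 8), and 74.8 ± 22.1 CPM in HOM nuclei (SD, n = 3) and 107 ± 14 CPM in WT nuclei (SD, n = 4). Among the 9 genotype comparisons, Chd8 passed the edgeR test in germline cortex only (−0.58 on the log2 scale with an SE of 0.0755, edgeR adjusted p = 7.89e-05), and gene counts do not set the excised flox exon apart. Nuclear-retained RNAs (a list including Malat1, Neat1 and Meg3) together stood at 1127.4 to 3349.7 CPM in 9 of the 11 germline WT synaptic libraries. They stood at 20686.9 to 33362.1 CPM in germline WT nuclear libraries. The synaptic libraries of animals 12M and 13M, both WT, held 31631.6 and 33195.3 CPM of them and so carry a nuclear-like profile against their label. The set's counts and medians in the germline synaptic, germline WT compartment and interaction comparisons are also given without them. Counts over the 5 groups of animals, under library totals and by exon share include them. Animal 47, labelled HET in the conditional line, had 0 Cre counts in both libraries. The nuclear and synaptic libraries of animal 29M (WT) carried sex markers that conflict with each other, the nuclear HET library of female replicate 4 was low in the X-inactivation RNA Xist, and animal 91 was labelled HET in 1 fraction and HOM in the other and was left out of comparisons within animals. In bulk tissue, fewer cells of a type and less RNA per cell cannot be told apart.

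The summed level of the 78 genes was on average lowest in the synaptic groups, and its range overlapped between genotypes in every fraction. In germline WT animals 4F and 5F the synaptic sums, 1865.0 and 1729.5 CPM, exceeded the nuclear ones, 1685.8 and 1567.3 CPM. They were lower than the nuclear sums in the other germline WT animals with both libraries. The summed level averaged 1943.0 ± 116.0 CPM in HET cortex (SD, n = 16) and 1861.0 ± 126 CPM in WT cortex (SD, n = 15). In the nuclear fraction it was 1680.6 ± 126.9 CPM in HET (SD, n = 9) and 1681.5 ± 183.9 CPM in WT (SD, n = 12). In the synaptic fraction it was 1221.4 ± 164.6 CPM in HET (SD, n = 7) and 1360.9 ± 257.7 CPM in WT (SD, n = 11), or 1335.2 ± 281.0 CPM in WT without animals 12M and 13M (SD, n = 9). These synaptic sums differed by batch label, and genotypes were spread unevenly over the labels. For labels beginning with 03 or 04, with 05, and with 06 or 07, HET averaged 1573.8, 1166.0 and 1146.0 CPM (n = 1, 5 and 1). In the same order WT averaged 1636.8, 1293.2 and 1135.8 CPM (n = 4, 3 and 4). The cytosolic sums were 2225.0 ± 90.8 CPM in HET (SD, n = 7) and 2254.0 ± 74.3 CPM in WT (SD, n = 5). Conditional cortex stood apart by its spread, with 2847.0 ± 790.8 CPM with Cre (SD, n = 6) and 2487.8 ± 597.1 CPM without (SD, n = 8), and single libraries between 1729.7 and 4077.8 CPM. Conditional nuclear sums averaged 1599.6 CPM in HET, 1625.7 CPM in HOM and 1578.8 CPM in WT, and conditional synaptic sums 1115.2, 1107.8 and 1137.3 CPM in HET, HOM and WT. The tables were not normalised together, so levels set across experiments are descriptions. RNAs encoded by the mitochondrial genome include the transcripts for the proteins this ribosome makes. They took 7.21% to 8.45% of counts on average in the synaptic groups and 3.55% to 4.23% in the nuclear groups. Without animals 12M and 13M the germline WT synaptic average was 9.5%.

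**Figure D1:**
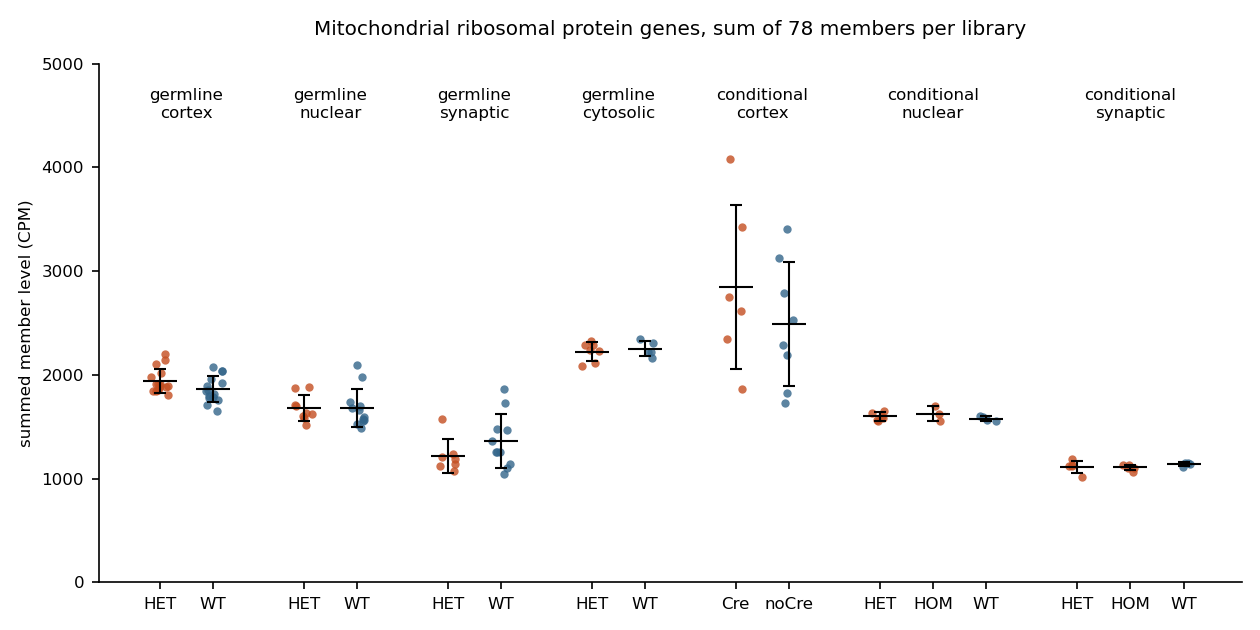
Summed CPM of the 78 mitochondrial ribosomal protein genes (vertical axis) in each library, 1 point per library, by line, fraction and genotype; orange marks mutants or Cre mice, blue their controls, and black bars the mean ± SD. Synaptic groups average 1107.8 to 1360.9 CPM, below the nuclear groups at 1578.8 to 1681.5 CPM, and conditional cortex spreads most, from 1729.7 CPM without Cre up to 4077.8 CPM with Cre.

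Of the 78 genes, 77 exceeded 1 CPM on average in every group; Mrpl53 was listed at or near 0 throughout. Other genes, Gm42688 and Ccdc142os, overlap 88.0% of the exon bases of Mrpl53, so reads there may not have been assigned to it. Divided by exon length, the highest levels in germline WT cortex belonged to Mrpl41, a mitochondria-specific large subunit protein, with 36.7 ± 4.70 CPM per kb in HET (SD, n = 16) and 36.2 ± 5.10 in WT (SD, n = 15). Mrps21, the counterpart of bacterial S21, followed with 40.0 ± 4.79 CPM per kb in HET and 34.9 ± 4.65 in WT, and Mrpl34 with 35.7 ± 4.09 in HET and 30.4 ± 3.69 in WT. Mrps12, a protein of the decoding centre, had 31.1 ± 3.34 CPM per kb in HET and 28.6 ± 3.66 in WT, and Mrpl43 had 26.2 ± 2.17 in HET and 25.1 ± 2.74 in WT. Most neighbours in this order did not differ beyond their spread, since 4 of the 77 gaps between neighbours exceeded the larger of the neighbours' SDs. Above Mrpl53, the lowest per kb were Mrpl33, at 1.06 CPM per kb in HET and 1.13 in WT, and Mrps30, at 2.07 in HET and 1.98 in WT. Exon length here is the union of all annotated transcripts, which for Mrpl33 spans 7326 bases against 478 in its main coding transcript, so its level per kb is set low by that length.

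The members known best for their roles spanned this order. Mrpl12, a stalk protein also linked to the mitochondrial RNA polymerase, stood at 11.1 ± 2.75 CPM per kb in WT cortex, close to Mrpl11 at 11.3 ± 1.45, while Mrpl10, the base of the stalk, reached 18.5 ± 1.48 (SD, n = 15 each). Mrpl3 (10.3 CPM per kb) and Mrpl44 (10.1) encode large subunit proteins whose human counterparts are mutated in mitochondrial disease, and Mrpl45 (11.7) encodes a protein that anchors the ribosome at the inner membrane. Among small subunit genes whose human counterparts are also disease genes, Mrps2 stood at 9.5 CPM per kb, Mrps34 at 7.1, Mrps16 at 5.28 and Mrps22 at 3.45. The 3 mouse homologues of bacterial S18 differed, with 8.36 CPM per kb for Mrps18a, 5.9 for Mrps18c and 3.9 for Mrps18b. In rank per kb in WT cortex these genes run between 9 (Mrpl10) and 68 (Mrps22) of 78.

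The germline cortex comparison asks whether losing 1 functional Chd8 allele changes these genes in adult cortex. No gene of the set passed the test (edgeR quasi-likelihood, Benjamini-Hochberg adjusted p under 0.05), against 57 of 17074 genes (0.334%). Of the 77 tested genes, 69 lay above 0 (89.6%, against 49.5% of all genes). The median log2 fold change of the set was 0.07, beside a median of 0 for all genes. The set's median varied between libraries with an SD of 0.09 on the log2 scale. Genes of the set share libraries, so counts above 0 are descriptions here and in the other comparisons. At an unadjusted p under 0.05 there were 16 genes higher and 0 lower, 16 of 77 against 9.25% of all genes in either direction, and with DESeq2 13 higher and 0 lower. The Mrpl genes had a median of 0.08 and the Mrps genes of 0.06. The median was 0.09 within batch CHD80456 (68 above 0) and 0.05 within batch CHD807 (50 above 0). Summed nuclear-retained RNAs averaged 4767.1 ± 2342.7 CPM in these HET libraries and 6064.7 ± 2834.3 CPM in WT (SD, n = 16 and 15), and their part in the shift was not tested.

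Mrpl34, the counterpart of bacterial L34, had the smallest p of the set in germline cortex. Its level was lowest at 16.1, in the middle at 22 and highest at 25.5 CPM in HET, against 15.2, 17.8 and 21.9 CPM in WT. Of the 16 HET libraries, 8 lay inside the WT range and 8 above it, a log2 fold change of 0.24 (SE 0.0634) with an edgeR adjusted p of 0.108. Mrpl17, a protein near the exit tunnel, ranged from 28.3 over a median of 30.7 to 37.3 CPM in HET and from 23.6 over 28.9 to 31.1 CPM in WT, a log2 fold change of 0.16 (SE 0.0442, edgeR adjusted p = 0.124). Mrpl40, whose human counterpart lies in the chromosomal region deleted in DiGeorge syndrome, ranged from 16.4 over 19.3 to 23.7 CPM in HET and from 14.1 over 17.2 to 20.6 CPM in WT (0.20 on the log2 scale with an SE of 0.0571, edgeR adjusted p = 0.15). Inside the WT range lay 10 of the 16 HET libraries for Mrpl17 and 13 for Mrpl40, the rest above it. Mrps33 (0.20), Mrps21 (0.20) and Mrpl23 (0.21), the last a protein at the exit tunnel, had similar log2 fold changes. Below 0, Mrpl37 (−0.04), Mrps17 (−0.02) and Mrpl33 (−0.07) had the smallest p. Of the members with known roles, Mrpl12 stood at 0.08, Mrps12 at 0.13, Mrps22 at 0.14 and Mrpl44 at 0.10, whereas Mrpl3 stood at 0 with an SE of 0.0327. Standard errors of the 77 genes ran between 0.0303 and 0.097 in this comparison.

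In the germline fractions the set did not share 1 direction. In the nuclear fraction the median log2 fold change was 0.05 (0.01 over all genes), with 52 of 77 above 0. No gene of the set passed the edgeR test, against 3 of 19912 genes (0.0151%), and 0 had an unadjusted p under 0.05 (7.38% of all genes), with 1 by DESeq2. Without the 2 nuclear libraries whose sex markers go against their labels the median was 0.06, with 57 above 0, 2 higher at an unadjusted p under 0.05 and 0 passing. With the replicate number as a block the median was −0.03 with 31 above 0, and without a batch term 0.01 with 45 above 0, so the direction of the set depended on the fit. The merged groups of batch labels in this fraction gave medians of 0.03, 0.08 and 0.25, the last from 7 libraries. In the cytosolic fraction the median was −0.03 with 25 above 0, and 0 genes passed the edgeR test or an unadjusted p under 0.05, against 0% and 3.28% of 18454 genes; DESeq2 also gave 0. Mrps34 had the smallest p there, with a log2 fold change of −0.23 (SE 0.114, edgeR adjusted p = 1). Mrps24 (−0.14) and Mrps14 (−0.09) followed below 0, and Mrpl15 (0.09), Mrpl4 (0.09) and Mrps30 (0.10) had the smallest p above 0. In the nuclear fraction Mrpl39 (0.18), Mrps10 (0.14) and Mrpl14 (0.18) had the smallest p above 0, and Mrpl33 (−0.17), Mrpl15 (−0.09) and Mrpl44 (−0.10) below 0.

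In the germline synaptic fraction the median was −0.01, with 35 of 77 above 0, and 0 genes of the set or of all 17178 (0%) passed the edgeR test. At an unadjusted p under 0.05 there were 0 higher and 2 lower, against 11% of all genes, and the same with DESeq2, which gave no adjusted p for 76 of the 77 genes. These 2 were Mrpl4, which lines the exit tunnel, and Mrpl33. Mrpl4 stood at 19.2, 21.2 and 24.9 CPM (lowest, median, highest) in HET and at 21, 27.2 and 59.2 CPM in WT, a log2 fold change of −0.30 (SE 0.0932, edgeR adjusted p = 0.33). Mrpl33 stood at 4.15, 4.39 and 6.28 CPM in HET and at 4.2, 6.32 and 15.4 CPM in WT, a log2 fold change of −0.32 (SE 0.134, edgeR adjusted p = 0.389). Both genes overlapped between genotypes. The 2 highest WT values of each gene were those of animals 12M and 13M, 59.2 and 52.7 CPM for Mrpl4 and 12.9 and 15.4 CPM for Mrpl33. The other 9 WT libraries reached 34.5 CPM for Mrpl4 and 10.6 CPM for Mrpl33, and without the pair the log2 fold changes were −0.27 and −0.33 (edgeR adjusted p = 0.0756 and 0.179). Mrpl1 (−0.18) was next below 0, and Mrpl20 (0.30), Mrps21 (0.24) and Mrpl57 (0.22) had the smallest p above 0. Without the nuclear-like libraries of animals 12M and 13M the median was −0.09, 12 genes lay above 0 and 15 were lower at an unadjusted p under 0.05, with still 0 passing the edgeR test. In that fit 8.37% of all 16862 genes were lower at an unadjusted p under 0.05 and 19% were so in either direction, and 142 genes outside the set (0.842%) passed the edgeR test.

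Cre-mediated deletion gave no called gene either. In conditional cortex 76 of 77 genes lay above 0 with a median of 0.19 (0 over all genes), the largest shift of the 9 comparisons, yet 0 genes passed the edgeR test or an unadjusted p under 0.05 (0% and 3.08% of 21798 genes), and 0 with DESeq2. The standard errors reached 0.327 with a median of 0.185, close to the size of the shift. Nuclear-retained RNAs summed to 1644.4 ± 217.8 CPM with Cre (SD, n = 6) and 2366.3 ± 931.3 CPM without (SD, n = 8), and their list had a median of −0.64 with 2 of 9 above 0. Lists with every tested member on 1 side of 0 were excitatory neuron markers (−0.15, 0 of 6 above 0), choroid plexus markers (−0.56, 0 of 6), oligodendrocyte markers (0.14, 6 of 6) and mitoribosomal genes with other symbols (0.14, 6 of 6). Male replicate 2 with Cre had both the highest summed level of the set, 4077.8 CPM, and the highest sum of cytosolic ribosomal protein genes, 37659.7 CPM. The part of these in the shift was not tested. Mrps34 (0.27), Mrps31 (0.22) and Mrpl36 (0.32) had the smallest p, and Mrps2 was alone below 0 (−0.01). In the conditional nuclear fraction the HET median was 0.09, with 58 above 0. There, 0 genes passed the edgeR test (0% of 21133 genes) and 1 had an unadjusted p under 0.05, against 4.45% of all genes, the same count as DESeq2. That gene was Mrpl41, at 25.2, 32.1 and 38.3 CPM (lowest, median, highest) in HET and at 25.3, 25.1, 26.6 and 31.7 CPM in WT, with overlap (log2 fold change 0.27, edgeR adjusted p = 0.933). Mrpl2 (0.26) and Mrps28 (0.45) were next above 0, and Mrpl33 (−0.24), Mrps30 (−0.23) and Mrps15 (−0.13) had the smallest p below 0. Without animal 47 the HET median was 0.02 and 45 genes lay above 0.

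In HOM nuclei the median was 0.16, with 65 of 77 above 0. Again 0 genes passed the edgeR test (0% of 21133), and 7 were higher at an unadjusted p under 0.05, against 11.6% of all genes in either direction, with 7 by DESeq2 too. The count of 7 moved with single libraries: it was 1 without HOM female replicate 1 (median 0.08, 54 above 0), 1 without WT female replicate 2 (median 0.13) and 3 without WT male replicate 2. It was 2 with the replicate number as a block and 2 under library totals (median 0.09). Nuclear-retained RNAs had a median of −0.56 in HOM nuclei with 0 of 9 above 0, endothelial and mural markers −0.76 (0 of 8) and choroid plexus markers −0.81 (0 of 6). Inhibitory neuron markers stood at 0.43 (6 of 6 above 0) and excitatory ones at 0.30 (6 of 6). The nuclear-retained RNAs summed to 20804.8 ± 4724.6 CPM in HOM (SD, n = 3) and 28542.8 ± 5689.4 CPM in WT nuclei (SD, n = 4), and the part of these lists in the shift was not tested. Mrpl23 stood at 16.2, 16.3 and 20.4 CPM in the HOM libraries, against 14.2, 13.7, 14 and 12.8 CPM in WT, a log2 fold change of 0.41 (SE 0.143, edgeR adjusted p = 0.426). Its HOM libraries lay above every WT library. Mrps14, a small subunit protein, had 26.4, 29 and 24.2 CPM in HOM, against 20.8, 23.3, 24.6 and 22.6 CPM in WT, and overlapped (0.32). Mrpl16, a protein by the peptidyl transferase centre, had 11.6, 15.6 and 14.4 CPM in HOM, against 10.5, 11.7, 12.1 and 10.2 CPM in WT, and overlapped as well (0.40). Below 0, Mrpl33 (−0.29), Mrps10 (−0.23) and Mrps30 (−0.27) had the smallest p. Standard errors of the 77 genes ran between 0.107 and 0.261.

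The conditional synaptic fraction showed medians of 0.00 in HET (38 of 77 above 0) and −0.01 in HOM (37 above 0). Without animal 47 the HET median was 0.03. Neither gave a gene past the edgeR test, with 0% of 17505 genes called in either comparison. At an unadjusted p under 0.05 HET had 0 (4.37% of all genes) and HOM had 1 lower (4.96%), with the same counts by DESeq2. That gene was Mrpl33, at 2.86, 1.52, 2.54, 2.12 and 3.39 CPM in HOM, against 2.37, 4.3, 2.85 and 5.46 CPM in WT, a log2 fold change of −0.55 (SE 0.25, edgeR adjusted p = 0.923). The groups overlapped. Elsewhere Mrpl33 stood at −0.07 in germline cortex, −0.17 and −0.14 in the germline nuclear and cytosolic fractions, −0.24 and −0.29 in conditional HET and HOM nuclei, −0.05 in conditional HET synaptic libraries and 0.11 in conditional cortex, none of them called. In conditional synaptic libraries the smallest p below 0 otherwise belonged to Mrps14 (−0.15), Mrpl37 (−0.16) and Mrpl42 (−0.15) in HET and to Mrps10 (−0.25) and Mrpl11 (−0.22) in HOM. Above 0 it belonged to Mrpl20 (0.25), Mrpl49 (0.18) and Mrps18b (0.28) in HET and to Mrpl49 (0.20), Mrps18b (0.34) and Mrps9 (0.12) in HOM. Comparisons within the conditional fractions share their WT libraries.

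**Figure D2:**
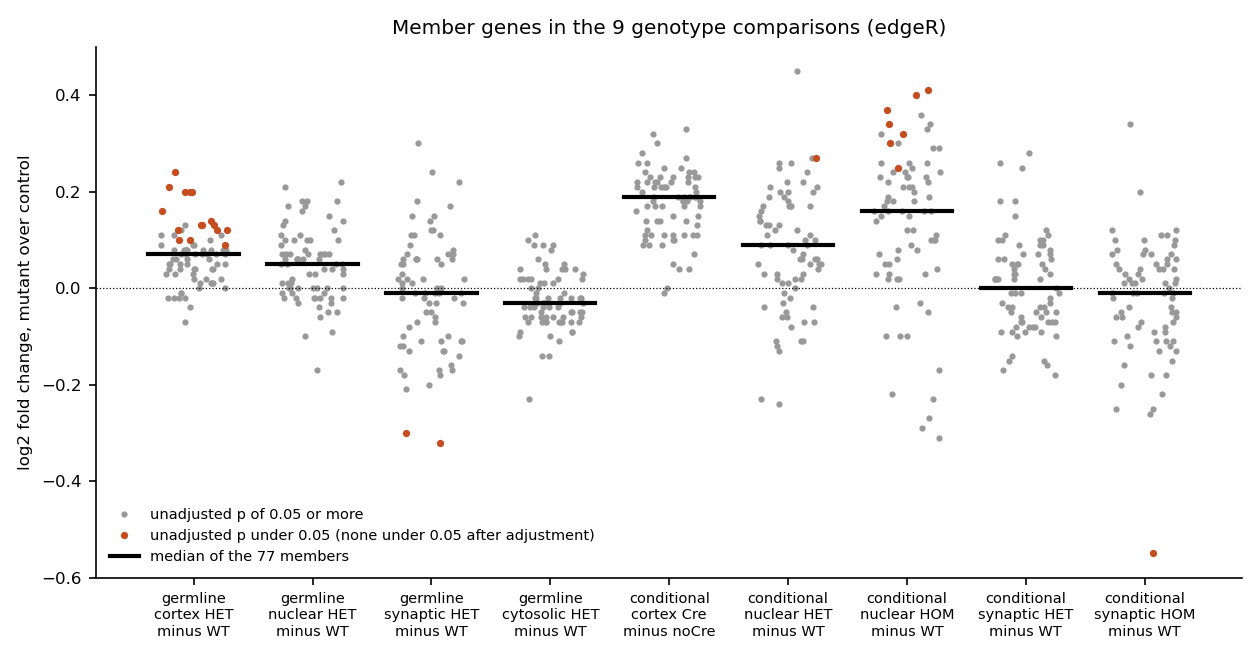
Log2 fold change of each of the 77 tested genes, mutant over control (vertical axis), in the 9 genotype comparisons; orange points have an unadjusted p under 0.05, grey ones do not, and bars mark medians. Medians run between −0.03 in the germline cytosolic fraction and 0.19 in conditional cortex, and no gene passed the adjusted threshold.

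The synaptic and the nuclear library of the same animal were compared, and genes of the set were called in both directions. Over the 5 groups of animals 23.4% of the set was called in no group, a larger share than over all genes. Cell type markers differed between the fractions as well. In germline WT animals endothelial and mural markers had a median of −4.46 (0 of 8 above 0). Markers of inhibitory neurons (1.36), excitatory neurons (0.89), microglia (0.81), astrocytes (0.77) and oligodendrocytes (0.57) were all above 0. Blood markers stood at −0.96 (0 of 5 above 0) and choroid plexus markers at −0.39 (2 of 6). Location in the cell and cell make-up cannot be told apart in these values. With TMM scaling, which centres the bulk of genes, 36 genes were higher and 11 lower in synaptic libraries of germline HET animals, and 35 were higher and 7 lower in germline WT animals (edgeR, 5 and 10 animals). Over all genes tested, 34.5% were higher and 38.5% lower in germline HET animals and 30.8% and 35.1% in germline WT animals. The median log2 fold change was 0.30 in HET and 0.35 in WT, beside −0.04 and −0.06 over all genes. In the conditional line 20 were higher and 11 lower in HET (5 animals, 31.5% and 33.5% of all genes), 5 and 10 in HOM (3 animals, 24.7% and 26.9%), and 28 and 13 in WT (4 animals, 31.9% and 35%). The conditional medians were 0.13 in HET, 0.03 in HOM and 0.16 in WT, and leaving out 1 animal gave 0.08 to 0.17 in HET, −0.04 (without animal 72) to 0.08 in HOM and 0.13 to 0.27 in WT. Single animals weighed on the conditional counts: in HET the higher count was 13, 8 and 12 without animals 46, 62 and 63 and 25 without animal 47, in HOM it was 2 without animal 70 or 72 and the lower count 6 without animal 72, and in WT the lower count was 8 without animal 55. Scaled to library totals alone, where the median of all genes fell to between −0.65 and −0.54, the medians of the set turned negative in all 5 groups, at −0.31 and −0.15 in germline HET and WT and −0.42, −0.48 and −0.37 in conditional HET, HOM and WT. Relative to all genes the set stayed higher by 0.34 and 0.41 in germline HET and WT and by 0.15, 0.06 and 0.22 in conditional HET, HOM and WT. Direction for the set thus depends on the scaling, and under library totals 4 genes were called higher in germline HET (Mrpl12, Mrpl16, Mrpl20 and Mrps36), 4 in germline WT (Mrpl12, Mrpl16, Mrpl49 and Mrps28) and 0 in the conditional groups.

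The split followed single genes across the 5 groups. In all 5 groups, 7 genes were lower: Mrpl24, Mrpl32, Mrpl33, Mrpl37, Mrpl41, Mrps9 and Mrps10. All 7 were called lower in every fit that left out 1 animal except HOM without animal 72, where 5 of the 7 were called. Under library totals they were lower in every group too. That scaling shifted the median of all genes to between −0.65 and −0.54, so it could not raise these genes and is no check on them. It likewise works against calls of higher genes. Another 5 were higher in all 5 groups, Mrpl2, Mrpl12, Mrpl16, Mrpl19 and Mrpl34, but under library totals 2 of these 5, Mrpl12 and Mrpl16, were called higher in each germline group and 0 in each conditional group. In conditional HOM animals 3 of the 5 were called with DESeq2, with RLE scaling and without animal 67, 2 without animal 70 or 72, and 4 without the filter on low counts or without the animal as a block. In conditional HET animals 2 were called without animal 62 and 3 without animal 64, and in germline WT animals 4 without animal 24M, 3F, 4F or 5F, where Mrpl2 was not called. The 7 and 5 of 77 are shares of 9.09% and 6.49%, against 22.5% lower and 20.5% higher in every group over all 17380 genes tested in the 5 groups. In all, 43 genes of the set were called higher in at least 1 group (55.8%, against 43.7% of all genes), 16 lower in at least 1 (20.8%, against 44.1%), 0 in opposite directions (0.794% of all genes), and 18 in none (23.4%, against 13%). Between germline WT and conditional WT animals, which share no animal, the log2 fold changes of the 77 genes had a Pearson r of 0.87 and a Spearman rho of 0.85, a description over genes that share annotation and counting.

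**Figure D3:**
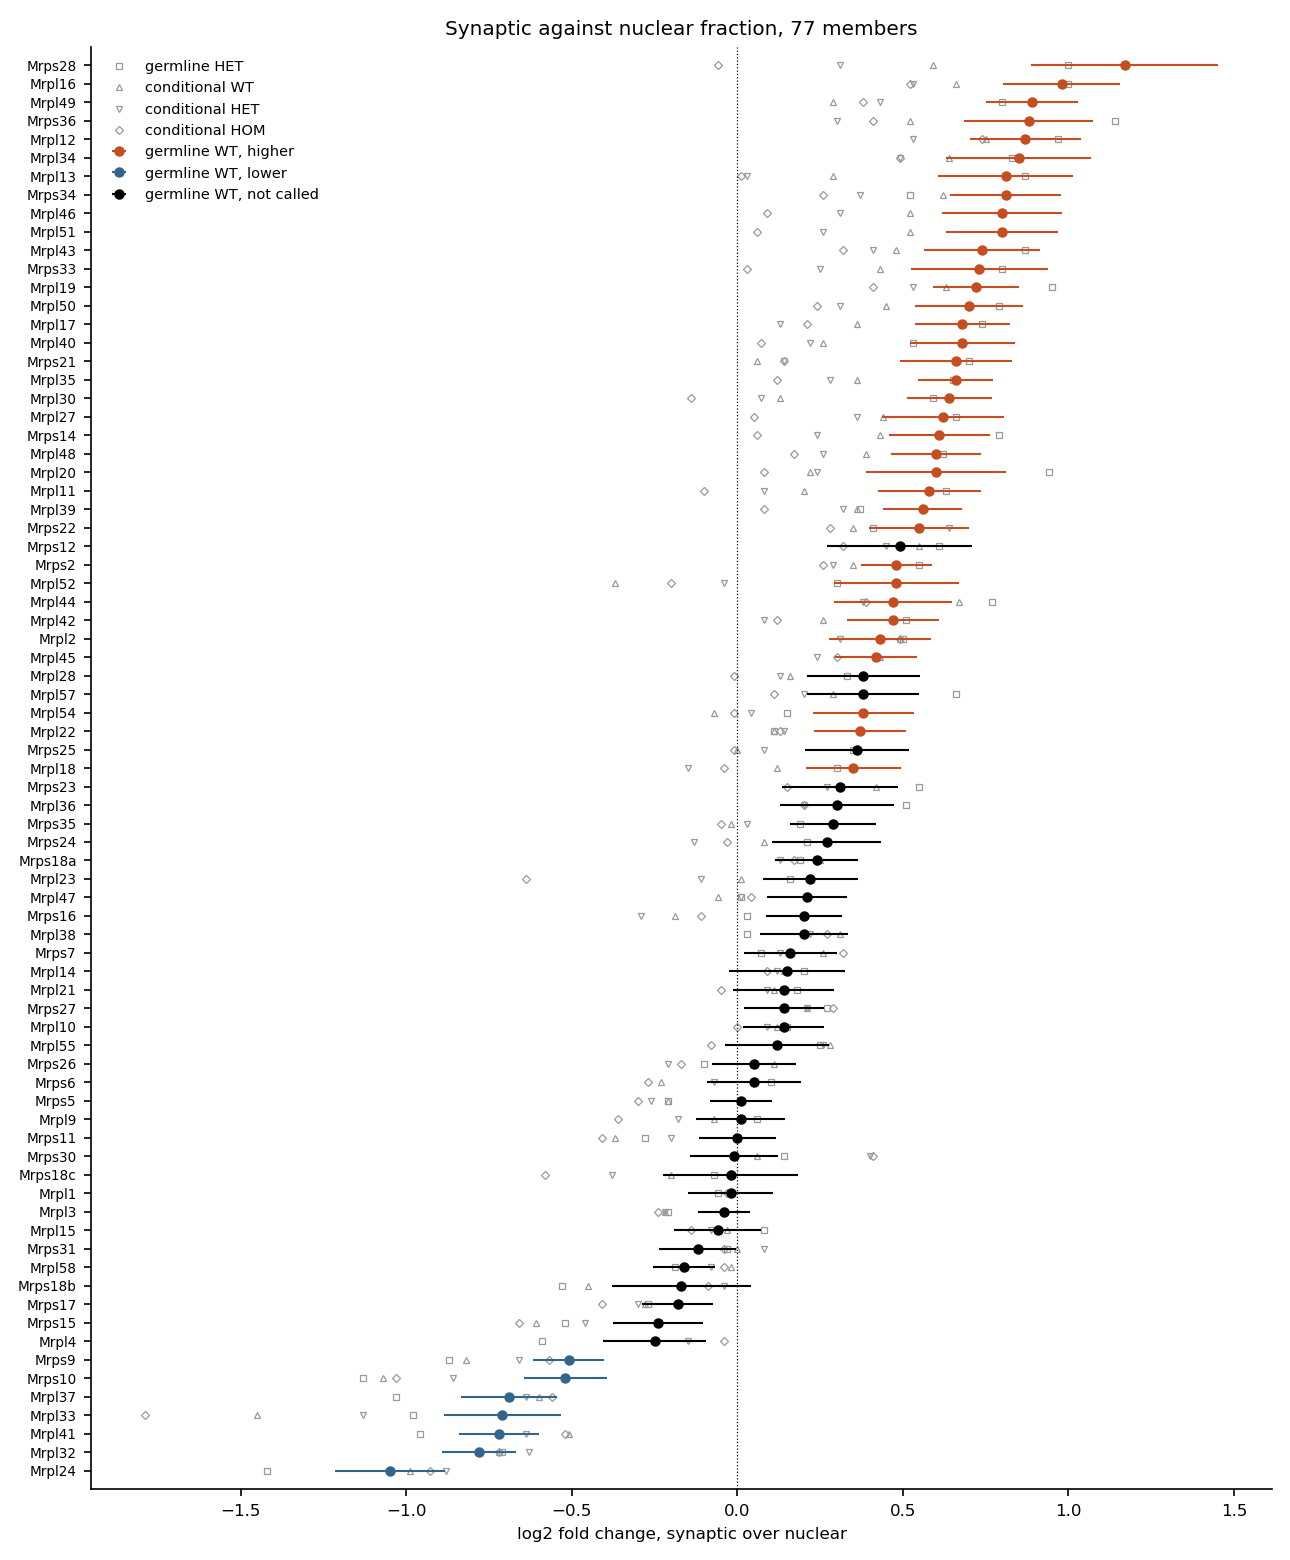
Log2 fold change, synaptic over nuclear (horizontal axis), of the 77 tested genes ranked by germline WT animals; filled points with bars are germline WT values ± SE coloured by call, and open symbols the other 4 groups. The 7 genes called lower in all groups lie below 0 in every group. Under library totals 24 and 26 of the 77 values lie above 0 in germline HET and WT animals and 1, 2 and 8 in conditional HET, HOM and WT animals.

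Mrpl24, whose product binds early in large subunit assembly near the exit tunnel, had the lowest log2 fold change in germline WT animals. Its scaled level in germline HET animals was 10.6, 9.6, 11.7, 14.7 and 17.1 CPM in synaptic libraries, against 35.3, 30.3, 35.9, 30.5 and 35.2 CPM in the nuclear libraries of the same animals (log2 fold change −1.42). In germline WT animals it was 11, 12.8 and 32.7 CPM (lowest, median, highest) in synaptic libraries, against 25.6, 33.7 and 43.4 CPM in nuclear ones, a log2 fold change of −1.05 (SE 0.166, edgeR adjusted p = 0.000186) or 48.3% of the nuclear level. All 15 germline animals were below 0; the ranges overlapped in WT through the synaptic libraries of animals 12M and 13M, at 32.7 and 29.6 CPM, and without these animals the log2 fold change was −1.22. In conditional HOM animals it was 14.7, 15.1 and 15.9 CPM in synaptic libraries, against 25.2, 29.2 and 33.3 CPM in nuclear ones, with no overlap (−0.93).

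Mrpl33, the counterpart of bacterial L33, fell furthest in the conditional line. Its scaled level in HOM animals was 3.24, 1.84 and 3.15 CPM in synaptic libraries, against 10.2, 7.24 and 10.7 CPM in nuclear ones (−1.79), and in conditional WT animals 2.9, 5.16, 3.39 and 6.54 CPM, against 9.86, 12.9, 10.8 and 14 CPM (−1.45). Neither pair of groups overlapped. In germline WT animals it was lower in 9 of 10 animals, with a log2 fold change of −0.71 (SE 0.176, edgeR adjusted p = 0.00339), or −0.82 without animals 12M and 13M. Mrps10, a protein of the small subunit head, was at −1.13 in germline HET and −0.52 in germline WT animals, with scaled synaptic levels of 13.2 to 21.8 CPM in HET and 15.4 to 36.5 CPM in WT. The other 4 followed in germline WT animals: Mrpl32, whose product is matured by the mitochondrial m-AAA protease, at −0.78 (SE 0.112, edgeR adjusted p = 0.000103), Mrpl41 at −0.72, Mrpl37 at −0.69 and Mrps9 at −0.51. Without animals 12M and 13M all 7 were still called, with Mrps10 at −0.66, Mrpl32 at −0.78, Mrpl41 at −0.67, Mrpl37 at −0.84 and Mrps9 at −0.61. Across all 27 animals of the 5 groups each of the 7 was below 0 in 26 or 27.

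Of the 5 genes higher in every group with TMM scaling, Mrpl16 had scaled levels in germline WT animals of 6.33, 16.4 and 23.6 CPM (lowest, median, highest) in synaptic libraries, against 5.52, 8.02 and 9.53 CPM in nuclear ones. This gave a log2 fold change of 0.98 with an SE of 0.177 (edgeR adjusted p = 0.000447), and 26 of the 27 animals were above 0. Mrpl12, the stalk protein, had 6.8, 13.2 and 22.5 CPM in synaptic libraries, against 5.18, 7.42 and 7.92 CPM in nuclear ones (0.87, SE 0.168, edgeR adjusted p = 0.000718). Mrpl34 stood at 0.85, Mrpl19, an intersubunit protein, at 0.72 and Mrpl2, part of the rRNA-binding core, at 0.43. In each of these 5 genes the lowest synaptic value in germline WT animals was that of animal 12M or 13M. Without these 2 animals the log2 fold changes were 1.15 for Mrpl16, 1.05 for Mrpl12, 1.15 for Mrpl34, 0.87 for Mrpl19 and 0.60 for Mrpl2, all called by edgeR.

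The largest positive log2 fold change in germline WT animals belonged to Mrps28, at 1.17 (SE 0.283, edgeR adjusted p = 0.00291), followed by Mrpl16, Mrpl49 (0.89) and Mrps36 (0.88). Mrps28 is a low gene, with scaled synaptic levels of 2.68 to 9.67 CPM against nuclear levels of 0.605 to 4.12 CPM in these animals, and it was not called in conditional HOM animals (−0.06). Of the genes with known roles, Mrps34 (0.81), Mrpl11 (0.58), Mrps22 (0.55), Mrps2 (0.48), Mrpl44 (0.47) and Mrpl45 (0.42) were called higher in germline WT animals. Mrps12 (0.49, edgeR adjusted p = 0.0631), Mrpl3 (−0.04), Mrpl10 (0.14) and Mrps16 (0.20) were not. Without animals 12M and 13M Mrps28 stood at 1.47, Mrps36 at 1.14 and Mrpl49 at 1.06, and Mrps12 (0.78, edgeR adjusted p = 0.000169) and Mrpl10 (0.27, edgeR adjusted p = 0.0207) were called as well.

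**Figure D4:**
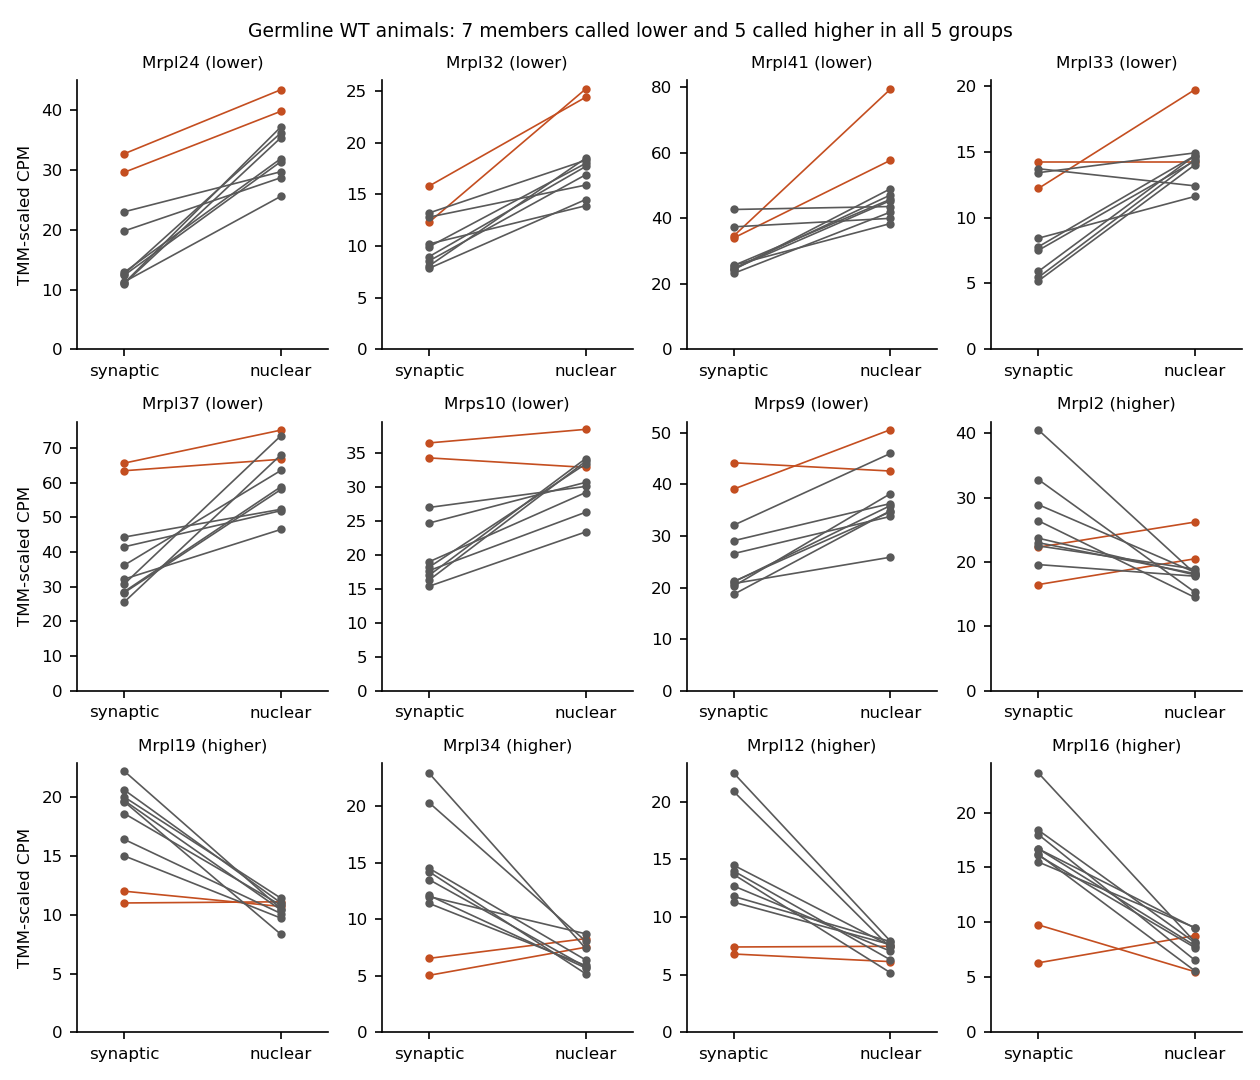
TMM-scaled CPM (vertical axes, from 0) in the synaptic and nuclear library of each of 10 germline WT animals, 1 line per animal, for the 7 genes lower and the 5 genes higher in all 5 groups; orange lines are animals 12M and 13M. For Mrpl24 these animals stand at 32.7 and 29.6 CPM in synaptic libraries, where the median is 12.8. Under library totals, which shift the bulk of genes down, 2 of the 5 higher genes were called in each germline group and 0 in each conditional group.

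The size of the difference varied by animal. Over the tested genes, the median log2 difference was 0.95 in animal 4F and 0.82 in animal 5F, and −0.17 in animal 12M and −0.28 in animal 13M, all germline WT. Without 12M and 13M the germline WT counts were 44 higher and 10 lower with a median of 0.50 (35% and 40% of all 18442 genes), and without 29M they were 33 and 7 with a median of 0.37. Germline HET animals had medians of 0.14 to 0.49, and conditional animals −0.08 to 0.28. Whether the difference itself depends on germline genotype was tested with an interaction term. Its median was −0.03, with 33 of 77 genes above 0 (42.9%), beside a median of −0.07 and 43.8% above 0 over all genes. No gene of the set or of all 21515 (0%) passed the edgeR test, and 2 were lower at an unadjusted p under 0.05 (7.21% of all genes), also 2 with DESeq2. These were Mrps10 (−0.62) and Mrps9 (−0.38). Without animals 12M and 13M the interaction median was −0.18 with 7 genes above 0, beside a median of −0.04 over all genes. In that fit 0 genes of all 21004 passed the edgeR test. At an unadjusted p under 0.05 there were then 3 lower, Mrps10 (−0.50), Mrpl40 (−0.38) and Mrpl39 (−0.33), against 3.88% of all genes lower and 5.83% in either direction, while Mrps9 stood at −0.29.

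Most, but not all, of the 7 genes lower in all groups had many exon bases outside their main coding transcript. In GENCODE M21 (GRCm38), 6 of the 7 have a transcript annotated with a retained intron, against 47 of the 77 tested. Their exons span a median of 4982 bases, against 1115 bases in their main coding transcript, and a median of 66.4% of their exon bases lie outside that transcript. Over the 77 genes the medians were 2533 bases and 31.9%, and over the 35 genes higher in germline WT animals 1876 bases and 19.9%. Mrpl33 (93.5%), Mrps10 (87.4%) and Mrps9 (75.4%) were at the upper end, whereas Mrpl41, a gene of 982 bases on chromosome 2 with 12.6%, was not. Gene counts pool reads over all exons of the annotation used in counting, so reads from retained introns annotated there count for the gene. Exon lengths given with the counts differed from GENCODE M21 in some genes. For Mrpl16 the length was 1122 against 3169 bases, so its 63.3% outside the main transcript may include bases that were not counted.

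Calls differed along this measure. Of the 32 genes with under 25% of exon bases outside the main transcript, 21 were higher and 1 lower in germline HET animals, and 19 and 1 in germline WT animals. Of all protein-coding genes tested in that range, 44.6% were higher and 29.3% lower in germline HET animals, and 38.8% and 28.5% in germline WT animals. Of the 9 genes with 75% or more, 3 were higher and 4 lower in germline HET animals, and 3 and 3 in germline WT animals, where all protein-coding genes gave 41.3% and 36% in HET and 36.2% and 32.6% in WT. In conditional animals these 9 genes held 0, 0 and 1 higher and 4, 5 and 4 lower calls in HET, HOM and WT, against 30.9%, 22.9% and 34.5% of all protein-coding genes higher and 35.6%, 30% and 36.1% lower. Spearman's rho between the measure and the log2 fold change over the 77 genes was −0.35 and −0.33 in germline HET and WT animals and −0.37, −0.36 and −0.44 in conditional HET, HOM and WT. Over all protein-coding genes tested (14952 in germline WT animals), rho was −0.12 and −0.08 in germline HET and WT and −0.13 in each conditional group. Points share libraries and annotation, so these are descriptions, and the part of retained introns in the differences was not tested. Exons of other genes also overlap some members, with 26.3% of the exon bases of Mrpl24 shared with antisense Rrnad1 and 36.0% of those of Mrpl19 with Gcfc2, and no strand setting is stated for the fraction tables.

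**Figure D5:**
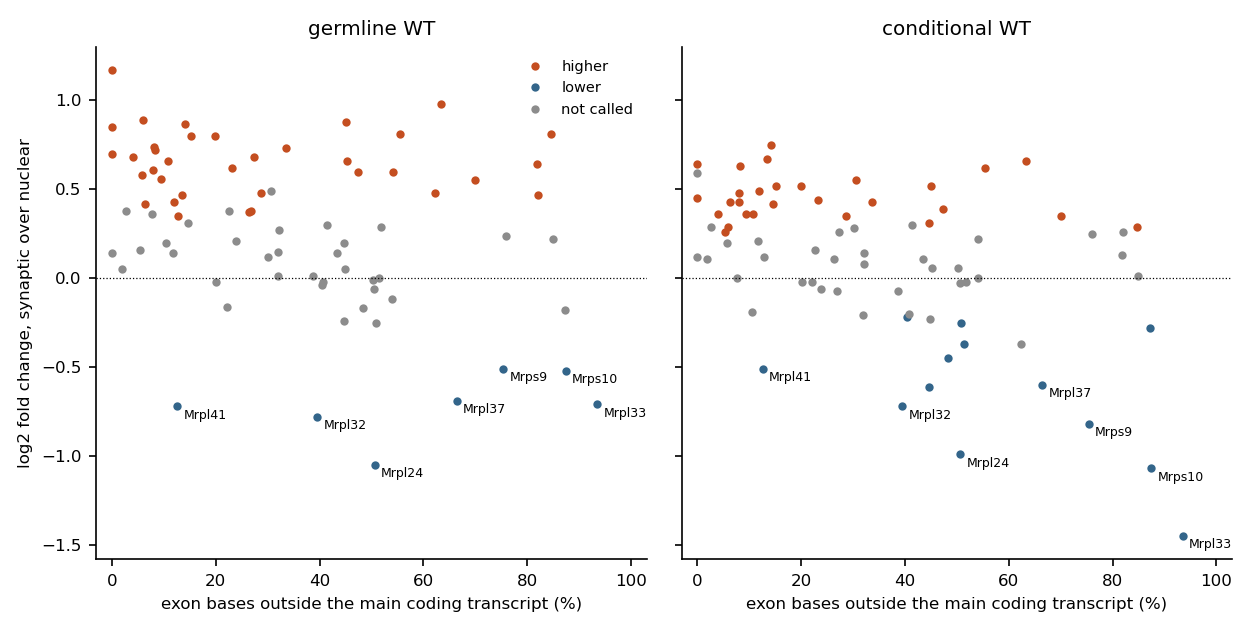
Log2 fold change, synaptic over nuclear (vertical axis), against the share of exon bases outside the main coding transcript in percent (horizontal axis), for the 77 tested genes in germline WT (left) and conditional WT animals (right), coloured by call with TMM scaling. Mrpl33, Mrps10, Mrps9 and Mrpl37 lie low at 66.4% or more, and Mrpl41 lies low at 12.6%.

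Other genes of mitochondrial translation were listed for comparison. In germline cortex, 1 of 25 mitoribosome assembly factors was higher in HET, Mtg1, a GTPase of large subunit assembly (log2 fold change 0.23, edgeR adjusted p = 0.027), and 1 of 20 mitochondrial tRNA synthetase genes, Wars2 (0.36, edgeR adjusted p = 0.0177). None of the 6 tested mitoribosomal genes with other symbols, the 12 translation factors or the 7 tested genes of mitochondrial transcription and RNA stability passed there, with medians of 0.10, 0.05 and 0. In the other 8 genotype comparisons 0 genes of these lists passed the edgeR test. Between fractions, 6 of the 25 assembly factors were higher and 12 lower in synaptic libraries of germline HET animals and 5 and 8 in germline WT animals, with medians of −0.26 and −0.13. In conditional animals 6 were higher and 8 lower in HET, 3 and 7 in HOM and 7 and 11 in WT, with medians of −0.06, −0.12 and −0.20. Whether they differ from the ribosomal proteins was not tested. In germline cortex, 2 of 5 tested markers of choroid plexus, the secretory tissue of the brain ventricles, were lower in HET, Aqp1 at −1.93 and Ttr at −2.99 (edgeR adjusted p = 0.01 and 0.0488). Their list summed to 14.8 ± 10.3 CPM in HET and 86.8 ± 148.9 CPM in WT (SD, n = 16 and 15). The WT SD exceeded the WT mean, so these markers were very uneven between WT libraries. Whether the lower calls of Aqp1 and Ttr rest on a few high WT libraries was not tested. The part of these markers in the results above was not tested either.

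Cytosolic and whole-cortex libraries of germline WT animals were set side by side in CPM, and the genes with the 2 lowest and 2 highest ratios are given, chosen by these values. Mrpl52 had 7.18 CPM in cytosolic libraries and 17 CPM in cortex, and Mrpl54 had 8.99 and 15.1 CPM. Mrpl50 had 52.7 CPM in cytosolic libraries and 26 CPM in cortex, and Mrpl24 had 32.5 and 19.8 CPM. Sequencing platform differed between these tables, so the values are given without a test.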

How the data were processed

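Poly(A)-enriched RNA-seq of mouse cortex and its fractions was analysed from 123 of 127 labelled libraries in 5 tables. The deposited values are raw counts per gene, which the authors made with STAR 2.5.4b and featureCounts 2.0.0 on GRCm38, per the submitters' processing notes. The conditional cortex table names featureCounts 1.6.0 on Ensembl 95 with no strand or read-pair option, per the file headers. Strand settings of the other tables are not given in the sources used here.

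Counts were fitted with edgeR 4.0.16 (quasi-likelihood F test, R 4.3.3) with filterByExpr, TMM scaling and Benjamini-Hochberg adjustment over all genes tested at 0.05. Covariates were sex and, in germline cortex, nuclear and synaptic libraries, batch. For nuclear and synaptic libraries the batch labels were merged by their first digits: 03 or 04, 05, and 06 or 07. Synaptic and nuclear libraries were compared with the animal as a block, since both come from 1 animal by label. CPM are counts over the library total, and levels per kb divide by exon length. Each comparison was also run with DESeq2 1.42.0, RLE scaling, without the filter and, added after seeing the data, with library totals alone. The genotype comparisons were also run with replicate blocks. Germline cortex, nuclear and synaptic comparisons were run without the batch term and, added likewise, within batches. Libraries or animals were left out 1 at a time in the cytosolic, conditional fraction and compartment comparisons (germline WT animals added likewise), not in the other comparisons. The edgeR script was tested on simulated counts with known changes. It recovered 58.2% of 1.2-fold and 91% of 1.5-fold changes in the germline cortex design. In the conditional nuclear HOM design it recovered 1.49% and 22.4% of these, and 84.8% of 2-fold changes. In the germline WT compartment design it recovered 1.49%, 20.9% and 86.4%. Small changes would thus mostly be missed in the latter 2 designs. No 2 libraries were identical (0 pairs), and replicates are separate animals only as far as the labels say, so p-values measure the spread between these samples. The conditional cortex titles and the protocol text differ in which group has 6 and which 8 mice, and the titles were followed.

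Same-numbered libraries of the 2 genotypes did not deviate together in every pair of any experiment (10 of 14 pairs had a correlation over 0.1 in germline cortex), so the numbers were not taken as pairs. Named genes were the 3 with the smallest p in each direction per genotype comparison, the 5 largest and 5 smallest compartment values in germline WT animals, the 5 highest and 3 lowest per kb, and a list with known roles; others were named after their values were seen. Members and lists were chosen with earlier results of these data known.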

Additional observations from a re-analysis of the deposited data

Results flagged for a closer look

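Of 147 groups of 4 to 10 values examined, 13 held 1 value far from the others by Dixon's criterion, which chance alone meets in about 1 of 20 groups. In germline synaptic HET, female replicate 3 stood apart in the summed level (1573.8 CPM) and in Mrpl41 (25.8 CPM), Mrpl33 (6.28 CPM) and Mrpl34 (16.2 CPM), all of them the highest of 7 libraries. That library was the only synaptic HET library with a batch label beginning with 03 or 04. The 4 synaptic WT libraries with such labels had summed levels of 1472.5 to 1865.0 CPM, and the part of batch was not tested. In conditional synaptic WT, male replicate 1 had the lowest summed level, 1108.2 CPM. In germline nuclear HET, Mrpl41 reached 75.3 CPM in female replicate 3, Mrpl34 reached 12.6 CPM in male replicate 4, and Mrpl19 was lowest at 8.01 CPM in male replicate 3. In conditional nuclear libraries, Mrpl34 was lowest at 4.55 CPM in HET male replicate 2 and Mrpl32 lowest at 20.5 CPM in WT female replicate 1. In conditional synaptic HOM libraries, Mrpl12 was highest at 12.1 CPM in female replicate 1 and Mrpl16 at 16.2 CPM in male replicate 2. In germline cytosolic HET, Mrpl32 was highest at 23.9 CPM in female replicate 1.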

How the results depend on the processing

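No gene of the set was called in a genotype comparison under any alternative run. Scaling by library totals alone moved the synaptic against nuclear counts most. Higher and lower calls became 4 and 39 in germline HET, 4 and 29 in germline WT, 0 and 57 in conditional HET, 0 and 45 in conditional HOM and 0 and 43 in conditional WT, with medians of −0.31, −0.15, −0.42, −0.48 and −0.37 in that order; this scaling does not centre the bulk of genes. Conditional HOM had 3 higher calls with DESeq2 and 3 with RLE scaling. Leaving out 1 animal gave 8 to 25 higher calls in conditional HET, 2 to 5 higher and 6 to 11 lower in conditional HOM, and 8 to 10 lower with medians of 0.13 to 0.27 in conditional WT. Within the merged batch labels beginning with 06 or 07 the germline nuclear median was 0.25, and the cause was not tested. With the title's replicate number as a replicate block, 0 genes of the set were called in the 9 genotype comparisons, with medians of 0.06, −0.03, 0 and 0.01 in germline cortex, nuclear, synaptic and cytosolic libraries. The block gave 0.18 in conditional cortex, 0.09 and 0.14 in conditional HET and HOM nuclei, and 0.02 and −0.03 in conditional HET and HOM synaptic libraries. Without the animal as a block, higher and lower calls between fractions were 37 and 11 in germline HET, 41 and 7 in germline WT, 18 and 11 in conditional HET, 4 and 11 in conditional HOM and 27 and 11 in conditional WT. Groups of 3 to 5 animals limit the conditional comparisons.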
